A study of Arabidopsis thaliana with 8 samples.

Results

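EXPA7 (AT1G12560), EXPA18 (AT1G62980) and XTH26 (AT4G28850) are 3 Arabidopsis thaliana genes for secreted proteins of the root hair cell wall. They were chosen by name, with earlier results of these data known, so their p-values are not those of genes picked blind. Each had exactly 1 probe set, a group of probes for one transcript, that names that gene alone in the annotation of the array. They are 3 of 13356 genes named in this way and their probe sets are 3 of 22810 in all, and all 3 passed the filter on dim probe sets, XTH26 through its ethylene values alone. The study measured RNA of whole dark-grown seedlings of the wild type Col-0 on 8 single-colour arrays. In the ethylene group, 4 arrays came from seedlings that had grown for 68 h in air in the dark and were then held for 4 h with the gaseous hormone ethylene at 10 ppm. In the air group, 4 arrays came from seedlings that spent 72 h in the dark without added ethylene. All seedlings were 3 days old, and each group comprised 2 replicas in each of 2 experiments, so that ethylene 2-1 is experiment 2, replica 1. No label says that the replicas were separate cultures, so p-values measure only the spread between these samples, which may be technical.

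A root hair is a tube that a single epidermal cell of the root pushes out by growth at its tip, and ethylene is known to promote both the formation and the lengthening of these hairs. Expansins loosen the bonds between wall polymers without cutting them, and EXPA7 and EXPA18 are alpha-expansins known for expression in root hair cells. XTH26 belongs to the xyloglucan endotransglucosylase/hydrolases, enzymes that cut and rejoin the xyloglucan tethers of the wall, and it too is known from root hair cells. The labels name whole seedlings and no organ. In such bulk RNA, more cells of a type and more RNA per cell cannot be told apart.

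The 3 genes had positive differences of very unequal size. XTH26 and EXPA7 rose in ethylene, by 3.10 and 0.82 on the log2 scale, while EXPA18, with a difference of 0.44, did not pass the test over all arrays. All differences are ethylene minus air on log2(intensity + 16), a scale that understates the change of dim genes. The test was limma over 15922 probe sets with Benjamini-Hochberg adjustment and group as the only term, and a gene passed at an adjusted p under 0.05. Of all tested probe sets, 1.56% were called higher in that fit, and the median difference was 0.01. That fit ignores the pairing of samples by experiment. With the experiment as a block, which takes the pairing into account, all 3 genes passed, against 4.33% of the tested probe sets called higher.

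XTH26 had intensities of 516.5 and 467.1 on ethylene 1-1 and 1-2, and of 1155.8 and 1390.1 on ethylene 2-1 and 2-2. On the air arrays it had 57.6 and 14.7 in experiment 1, and 209.1 and 138.0 in experiment 2. The lowest ethylene value was therefore above the highest air value, and within each group both arrays of experiment 2 were brighter than both of experiment 1. The mean intensity was 882 ± 461 in ethylene and 105 ± 86.3 in air (SD, n = 4 each). The fold on the log2(intensity + 16) scale, which depends on the pseudocount for so dim a gene, was 8.58, with a 95% interval from 3.38 to 21.8 (limma adjusted p = 0.0169, or 4.17e-05 with the experiment as a block).

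XTH26 was dim in air. On air 1-2 only 3.96% of all probe sets were dimmer than XTH26, and on air 2-1, its brightest air array, 27.2% were. On the ethylene arrays the same share lay between 39.1% and 58.5%. No detection calls came with the values, so whether the air signal of XTH26 stood above background was not tested. Its mean log2 value over the 8 arrays was 8.11, just above the limit of 8.05 under which probe sets were left out of the test. The air values, 4.94 to 7.81, all lay below that limit and the ethylene values, 8.92 to 10.46, all above it, so a gene this dim could enter the test only by being high in one group. With no filter and the same pseudocount its adjusted p was 0.0220, and with no filter and pseudocount 1 its difference was 3.46 (0.0335). Without air 1-2 the difference was 2.56 (limma adjusted p = 0.0254). The gene no longer passed when ethylene 2-1 (adjusted p = 0.0524) or ethylene 2-2 (0.0585), its 2 brightest arrays, was left out, and with the experiment as a block it passed whichever array was left out (adjusted p of 3.39e-05 to 0.000663).

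EXPA7 had intensities of 2134.1, 1839.9, 2212.5 and 2359.0 on ethylene 1-1, 1-2, 2-1 and 2-2. On air 1-1, 1-2, 2-1 and 2-2 it had 891.8, 1391.9, 1573.8 and 1047.9. The groups did not overlap, and the ethylene arrays lay closer together than the air arrays, with a highest over lowest value of 1.28 in ethylene and 1.76 in air. The mean intensity was 2136 ± 219 in ethylene and 1226 ± 312 in air (SD, n = 4 each). This was a fold of 1.77 with a 95% interval from 1.30 to 2.41 (limma adjusted p = 0.0483; the SE of the log2 difference was 0.20). The adjusted p was close to the threshold, and without any 1 array other than air 2-1 the gene no longer passed (0.0687 to 0.135), nor did it with replicas as a random block (0.295), with no filter on dim probe sets (0.064) or with median scaling (0.0511). In the blocked model it passed over the 8 arrays (adjusted p = 0.00622) and without any 1 of them (0.00418 to 0.0283).

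EXPA18 had the intensities 3440.7, 3732.0, 3751.4 and 4501.0 on ethylene 1-1, 1-2, 2-1 and 2-2, against 2271.0, 2585.0, 3743.0 and 2874.2 on air 1-1, 1-2, 2-1 and 2-2. Here the groups overlapped, because air 2-1 was brighter than ethylene 1-1 and 1-2 and just below ethylene 2-1. The other 3 air arrays lay below all ethylene arrays. The mean intensity was 3856 ± 453 in ethylene and 2868 ± 633 in air (SD, n = 4 each), a fold of 1.36 with a 95% interval from 1.04 to 1.78 (limma adjusted p = 0.266). With the experiment as a block the adjusted p was 0.0452. Leaving out 1 array in that blocked model gave adjusted p from 0.0230, without air 2-1, to 0.147, and the gene passed in 2 of 8 cases, without air 2-1 and without ethylene 2-1.

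An exact two-sided permutation test over the 8 arrays gave p = 0.0286 for XTH26 and for EXPA7, the smallest that 4 arrays against 4 allow, and p = 0.0857 for EXPA18. All 4 ethylene values lay above all 4 air values for 4.19% of the tested probe sets, XTH26 and EXPA7 among them.

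**Figure D1:**
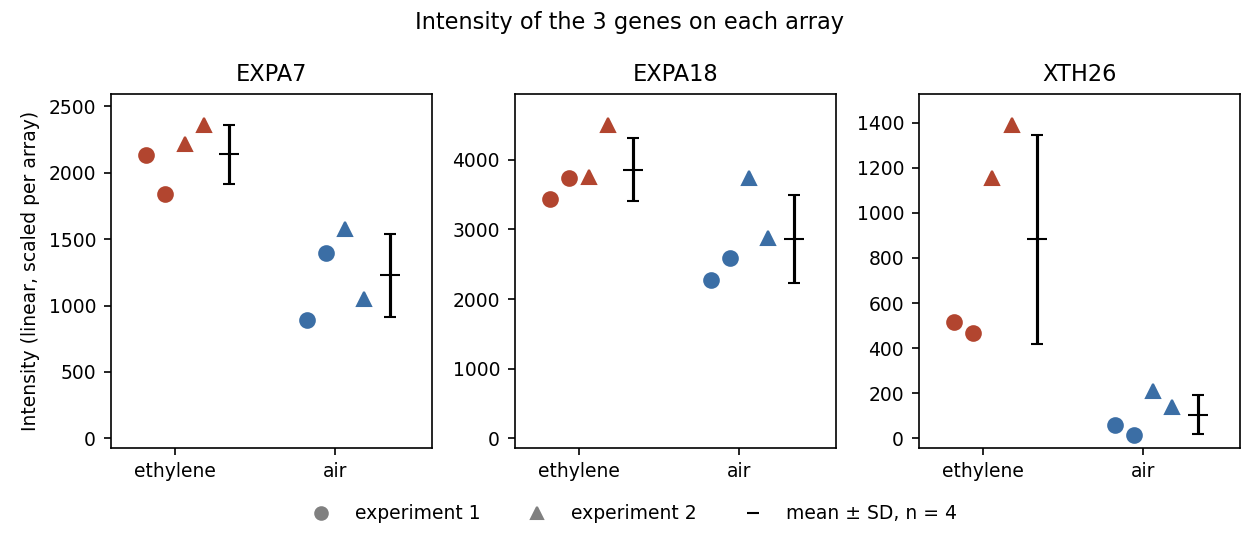
Linear intensity of EXPA7, EXPA18 and XTH26 on each of 4 ethylene arrays (red, left) and 4 air arrays (blue, right), with circles for experiment 1, triangles for experiment 2 and the mean ± SD in black. Each panel has its own scale; the groups are apart for EXPA7 and XTH26, while for EXPA18 the array air 2-1 (3743.0) lies among the ethylene arrays.

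The same comparison was made within each experiment, in a model with a mean for each experiment and group. The difference of EXPA7 was 0.82 in experiment 1 and 0.82 in experiment 2, with a 95% interval from 0.26 to 1.38 in both. The difference of XTH26 was 3.42 (SE 0.51) in experiment 1 and 2.79 (SE 0.51) in experiment 2. That of EXPA18 was 0.56 in experiment 1, and 0.32 in experiment 2, where its interval ran from −0.08 to 0.73. XTH26 passed in experiment 1 (limma adjusted p = 0.00118) and in experiment 2 (0.00515), against 2.54% and 2.38% of tested probe sets called higher there. EXPA7 (0.0897 and 0.0873) and EXPA18 (0.113 and 0.412) passed in neither. In fits to the arrays of 1 experiment alone, XTH26 passed in experiment 2 (adjusted p = 0.00087) and not in experiment 1 (0.0681).

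For none of the 3 genes did the ethylene difference itself differ between experiments by this test. The difference of experiment 2 minus that of experiment 1 was 0.00 for EXPA7 (95% interval −0.79 to 0.79), −0.24 for EXPA18 (−0.81 to 0.33) and −0.63 for XTH26 (−2.18 to 0.92), with limma adjusted p of 0.91 to 0.999. The intervals are wide, so these values do not show that the responses were equal. For XTH26 the difference between experiments depended on the processing. It was −0.0014 with pseudocount 64 and −0.93 with quantile normalization. Over all tested probe sets this test called 0 (0%) with limma, with 917 of the 15922 at an unadjusted p under 0.05. That threshold lets through a share of about 0.05 by chance alone.

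**Figure D2:**
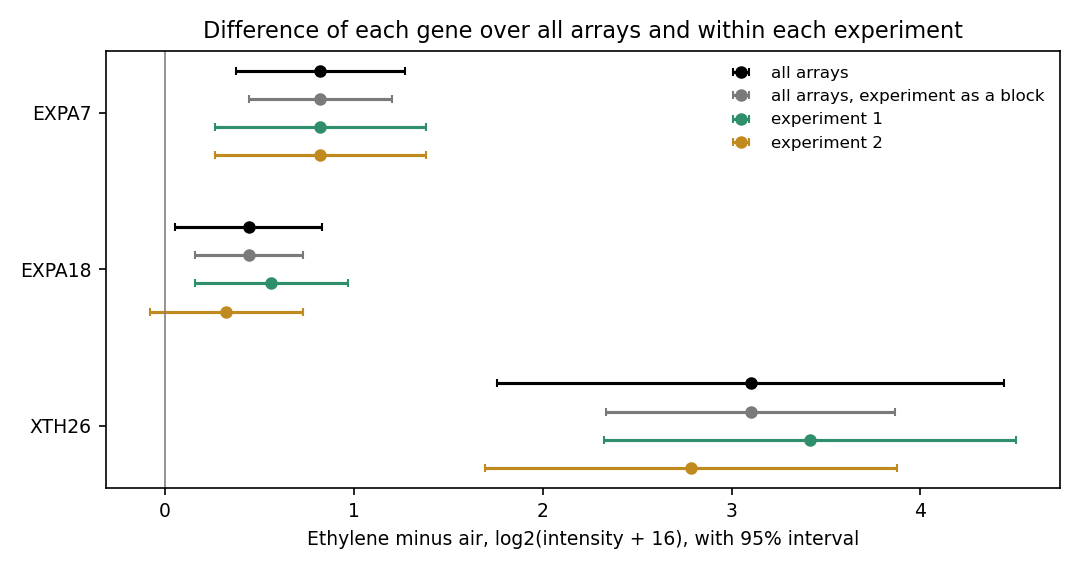
Ethylene minus air on the log2(intensity + 16) scale for EXPA7, EXPA18 and XTH26, as points with 95% intervals over the 8 arrays, over the same arrays in the blocked model, and within experiments 1 and 2. Because the design is balanced, both estimates over the 8 arrays are by construction the mean of those within the experiments. Within experiments 1 and 2 the estimate of EXPA7 is 0.82 in each, and that of XTH26 is 3.42 and 2.79. The interval of EXPA18 in experiment 2 reaches below 0.

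The level of XTH26 also differed between the experiments. Averaged over ethylene and air, XTH26 was higher in experiment 2 than in experiment 1 by a log2 difference of 1.65 (SE 0.36; adjusted p = 0.00425 in limma), in a comparison that called 18.2% of the tested probe sets higher. EXPA18 differed in the same way by 0.32 (SE 0.13, adjusted p = 0.0875) and EXPA7 by 0.20 (SE 0.18, adjusted p = 0.424), and neither passed. As a description, ethylene accounted for 74.3% of the sum of squares of the log2 values of XTH26 over the 8 arrays, experiment for 21.2% and the spread between replicas for 3.82%. For EXPA7 these shares were 73.9%, 4.50% and 21.6%, and for EXPA18 52.3%, 26.6% and 17.4%. For XTH26 the share of experiment was larger than that of replicas, and for EXPA7 it was smaller. The shares are plain sums of squares. The replica share gathers more independent differences than the experiment share, so the shares are not spreads on a like footing.

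The 3 genes varied in a partly similar way over the arrays. Within ethylene, each of them was brightest on ethylene 2-2. Within air, each was brightest on air 2-1, and EXPA7 and EXPA18 were dimmest on air 1-1 while XTH26 was dimmest on air 1-2. EXPA7 was dimmer on air 2-2 than on air 1-2, while EXPA18 and XTH26 were brighter on air 2-2. Pearson's r of the log2 values over the 8 arrays was 0.874 for EXPA7 with EXPA18, 0.880 for EXPA18 with XTH26 and 0.807 for EXPA7 with XTH26. These values describe 8 arrays that fall into ethylene and air, so any pair of genes that rose shares part of this likeness. Among 8675 other tested probe sets that name 1 gene, EXPA18 ranked 68th in likeness to EXPA7 and 112th in likeness to XTH26. XTH26 ranked 172nd in likeness to EXPA7, and EXPA7 ranked 324th in likeness to XTH26. Many other genes were therefore closer to each than its partner was.

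**Figure D3:**
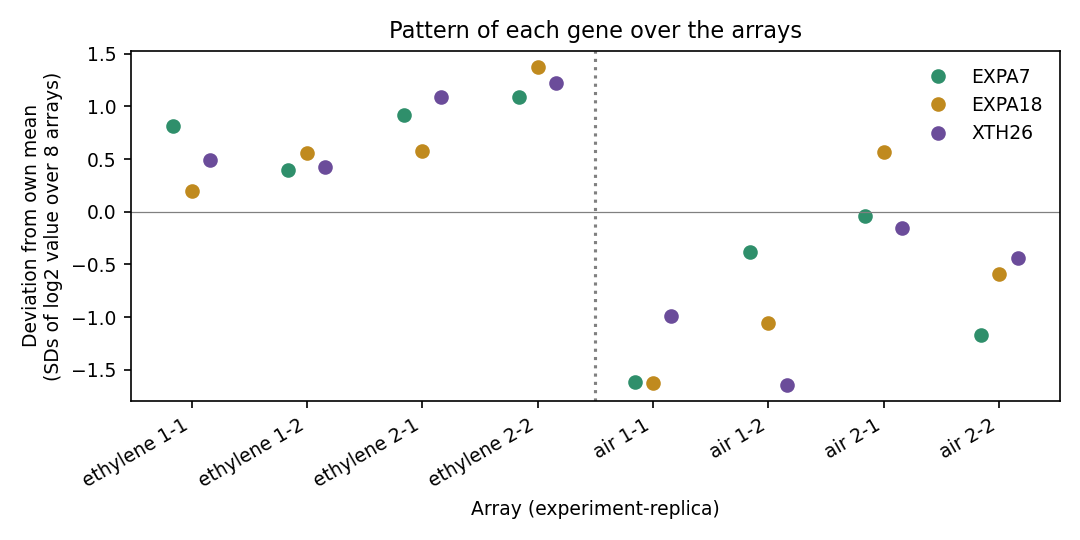
Deviation of each gene from its own mean, in SDs of its log2 value over the 8 arrays, with ethylene arrays left of the dotted line and air arrays right of it. The 3 genes lie above their mean on all 4 ethylene arrays, each highest on ethylene 2-2, and within air each is highest on air 2-1.

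The 3 tested genes closest to EXPA7 were AT1G19900 (r = 0.964), AT1G66440 (0.961) and AT3G10040 (0.953), each over 8 arrays. AT1G19900 had a mean intensity of 14641 ± 1013 in ethylene and 2706 ± 1169 in air, a difference of 2.53 (SE 0.26, limma adjusted p = 0.000468). Those closest to EXPA18 were AT5G03660 (0.968), AT2G36090 (0.958) and AT4G25790 (0.953), with differences of 0.56, 0.77 and 0.89 that did not pass over all arrays (adjusted p of 0.129 to 0.271) and did with the experiment as a block (0.00348 to 0.0317). Those closest to XTH26 were AT1G77810 (0.990), AT4G38410 (0.987) and CSLC12 (0.981). CSLC12, a member of the cellulose synthase-like C family that is known for making the xyloglucan backbone, had 822 ± 209 in ethylene and 344 ± 117 in air, a difference of 1.25 (SE 0.29, adjusted p = 0.0394). These 9 genes were picked for their likeness, so their directions carry no separate weight.

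The sizes of the 3 responses were compared through the difference of 2 genes' log2 values on each array, in 3 pairs with exact two-sided permutation tests. The response of XTH26 exceeded that of EXPA7 by 2.28 (SE 0.72) and that of EXPA18 by 2.66 (SE 0.63), each with an exact permutation p = 0.0286, the smallest possible, and p = 0.0429 after Benjamini-Hochberg adjustment over the 3 pairs. In both pairs the 4 ethylene arrays lay above the 4 air arrays. The size of the excess depended on the pseudocount. Over EXPA7 it was 1.71 with pseudocount 64 and 2.63 with pseudocount 1, and over EXPA18 it was 2.07 and 3.01. XTH26 was dim in air and passed the filter on dim probe sets only through its ethylene values. Permuted within each experiment, neither pair passed (exact permutation p = 0.0556 each, the smallest that this scheme allows). The responses of EXPA7 and EXPA18 differed by 0.38 (SE 0.14), with an exact permutation p = 0.0857 before and after adjustment. This size was 0.26 in experiment 1 and 0.50 in experiment 2.

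Other expansins fell or did not pass. Of 36 genes listed for the expansin family, 18 had a probe set that names them alone and 14 were tested, of which 1 rose, EXPA7, and 4 fell, beside 1.56% of all tested probe sets called higher and 2.55% called lower. The median difference of the 14 was −0.60, against 0.01 over all tested probe sets, and −0.80 without EXPA7 and EXPA18. EXPB1, a beta-expansin, had a mean intensity of 1422 ± 494 in ethylene and 5664 ± 1280 in air, a difference of −2.02 (SE 0.26, limma adjusted p = 0.00148). EXLA2, of the expansin-like A branch, fell to 3684 ± 535 in ethylene, against 6811 ± 398 in air (difference −0.89, adjusted p = 0.00541), and no longer passed with replicas as a random block (0.0565). The alpha-expansins EXPA8 and EXPA15 also fell, by 1.37 and 1.36.

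With the experiment as a block, 2 expansins rose, EXPA7 and EXPA18, and 7 fell, beside 4.33% of all tested probe sets called higher and 7.35% called lower in that fit. The 3 that were added are EXPB3 (difference −0.90, adjusted p = 0.0583, or 0.00429 with the block), EXLA3 (−0.95, 0.0857, or 0.0427) and EXPA4 (−0.71, 0.209, or 0.000824). EXPA7 and EXPA18 had the 2 highest differences of the 14. The next, EXPA9, chosen for that place after its values were seen, had 0.29 (adjusted p = 0.521), with a mean intensity of 24200 ± 4298 in ethylene and 19713 ± 2504 in air.

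The difference between their responses and those of each other tested expansin was tested on the arrays in the same way. The response of EXPA7 was higher than that of 10 of 12 others, by 0.82 to 2.84 (exact permutation, adjusted p = 0.0352 over 32 comparisons in all). For EXPA9 and EXPA16 the excess was 0.53 and 1.13, with adjusted p of 0.126 and 0.183. The response of EXPA18 was higher than that of 8 of 12 others. It did not pass against EXPA4 and EXLB1 (0.0653 each), EXPA16 (0.295) or EXPA9, where the excess was 0.15 (0.600). Permuted within each experiment, where the smallest p is 0.0556 and no comparison can pass, 11 of 12 comparisons of EXPA7 and 11 of 12 of EXPA18 gave that exact permutation p. The comparisons of a gene share its own 8 values and are not independent.

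Of 33 genes listed for the XTH family, 10 had a probe set that names them alone and 9 were tested. Of these 9, XTH26 rose and XTH21 fell, with the experiment as a block as well. Of all tested probe sets 1.56% were called higher and 2.55% lower, or 4.33% and 7.35% with the block. The median difference was −0.01 over the 9 and −0.05 without XTH26. XTH21 is known for a part in root growth and had a mean intensity of 187 ± 91.7 in ethylene and 645 ± 169 in air, a difference of −1.83 (SE 0.43, limma adjusted p = 0.0399). It, too, no longer passed when any of the arrays was left out except ethylene 1-1 or ethylene 1-2 (0.0521 to 0.121), with replicas as a random block (0.272), with no filter (0.0611) or in either experiment alone (0.0719 and 0.0577). The other 7 had differences between −0.22 for XTH33 and 0.46 for XTH18, and XTH16 had 0.27. The response of XTH26 was higher than that of all 8 others, by 2.64 against XTH18 to 4.93 against XTH21 (exact permutation, adjusted p = 0.0352 over the 32 comparisons). XTH26 passed the filter on dim probe sets only through its ethylene values. A family member as dim in air that did not rise could therefore not be among the 8. Permuted within each experiment, all 8 comparisons gave the smallest exact permutation p, 0.0556, and so none passed.

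**Figure D4:**
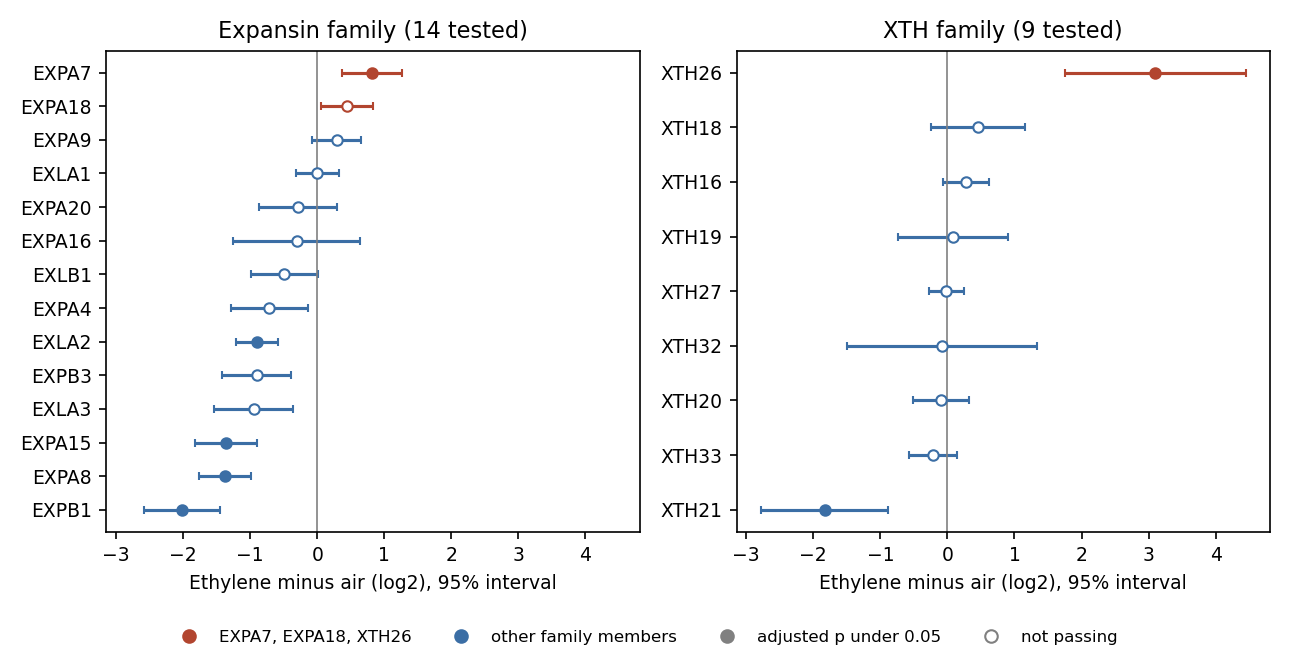
Ethylene minus air (log2) with 95% intervals for the tested members of the expansin family (left) and the XTH family (right), sorted by size, with EXPA7, EXPA18 and XTH26 in red, other members in blue, and filled points for an adjusted p under 0.05. EXPA7, EXPA18 and XTH26 stand at the top of the tested members of their families, at 0.82, 0.44 and 3.10, and the lowest values are those of EXPB1 (−2.02) and XTH21 (−1.83).

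Few other genes known from root hairs are named alone by a probe set in the annotation. Among those listed, 8 symbols matched no locus. The annotation also does not list 8794 of the 22810 probe sets, so more of these genes may be on the array. Of 70 such genes listed, 7 had a probe set that names them alone, and all 7 were tested: 2 rose, XTH26 and EXPA7, and none fell in limma, where 0 had a negative difference at an unadjusted p under 0.05. Of all tested probe sets 1.56% were called higher and 2.55% lower. The median difference of the 4 without EXPA7, EXPA18 and XTH26 was 0.18. GH9C1, an endoglucanase known from root hairs, had a mean intensity of 3855 ± 1047 in ethylene and 2013 ± 826 in air. Its lowest ethylene value, 2804.9, was just below its highest air value, 2841.6, and its difference of 0.99 (SE 0.30) did not pass over all arrays (limma adjusted p = 0.112). It passed with the experiment as a block (adjusted p = 0.000247), so that 4 of the 7 rose in that model and none fell, beside 4.33% of all tested probe sets called higher and 7.35% called lower. Of these 4, 3 are EXPA7, EXPA18 and XTH26 themselves. GH9C1 also passed in fits to experiment 1 alone (1.20, limma adjusted p = 0.00358) and to experiment 2 alone (0.77, 0.0294). Those fits called 374 and 387 of the 15922 tested probe sets higher. CSLD2, a cellulose synthase-like gene needed for normal hairs, had a difference of 0.18 (adjusted p = 0.739). SCN1, which limits where hairs start, had 0.17, and the receptor kinase gene FER, which acts in hair growth among many other processes, had −0.06.

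For nearly all markers of other cell types, the annotation held no probe set that names them alone. Whether the array carries probes for them was not tested. Of 10 patterning genes of the epidermis 1 was tested, TRY, with 396 ± 62.7 in ethylene and 369 ± 45.5 in air, a difference of 0.09 (limma adjusted p = 0.933). Of 23 markers of root cell types 1 was tested, JKD, a regulator in the root ground tissue, with a difference of −0.19 (adjusted p = 0.811). Of 10 markers listed for the shoot epidermis and hypocotyl none was tested. The share of root tissue or of hair cells in the seedlings, and its part in the differences of EXPA7, EXPA18 and XTH26, was not tested.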

How the data were processed

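The authors' deposited table held 1 linear intensity per probe set and array. The scanner software, the probe summary and the build were not given in the sources used here. After removal of the highest and lowest 2% of values, the mean intensity was 2500.2 on every array, and array medians ranged from 833 to 980. The number of arrays limits the precision. Genes were named through the annotation of the array (13513 probe sets name 1 gene) and were matched to RefSeq loci of assembly TAIR10.1 by gene number (13436 matched). The annotation does not list 8794 of the 22810 probe sets, so a gene without a named probe set may still be on the array. No coordinates are printed because the table names no build.

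Intensities were converted to log2(intensity + 16). Control probe sets (64) and then the dimmest 30% by mean log2 value were left out, which kept 15922 for the test with limma 3.58.1 in R 4.3.3 (lmFit, then eBayes allowing a trend with intensity), with scipy 1.17.1 in Python 3.11.15 for the permutation tests. Group was the only term, so the calls over all arrays ignore the pairing of samples by experiment described below. An alternative model, which takes the pairing into account, added the experiment as a block. The labels give the experiment as the first number of each sample, shared by both groups. Deviations from the group means correlated at 0.28 or more between ethylene and air arrays of the same experiment, so the experiment pairs the samples. For same-numbered arrays the range was 0.327 to 0.593. Between ethylene and air arrays of different experiments the correlation was −0.25 or less. Deviations cancel out within each group, so these negative values mirror the positive ones and are not separate support. Alternatives were other pseudocounts, filters and scalings, blocks, each experiment alone and leaving out each array.

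The genes and lists were chosen with earlier results of these data known. Of several probe sets of a gene, the brightest on average was used. Named were EXPA7, EXPA18 and XTH26, the list members that passed, up to 3 more per list with the smallest p, and the 3 tested genes most like each of the 3. The symbol FDH on a marker list belongs to another gene in RefSeq and was not used. SCN1, FER, TRY, JKD and EXPA9, EXPA16 and EXLB1 were named beyond this rule, after their values were seen.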

Additional observations from a re-analysis of the deposited data

Results flagged for a closer look

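Among 25 named genes, with the 4 ethylene and the 4 air arrays looked at separately (50 groups), 1 value stood apart from the others of its group. XTH33, another member of the XTH family, had an intensity of 5349.8 on ethylene 2-2, while the other 3 ethylene arrays lay between 3729.6 and 3869.6. Chance flags about 1 in 20 such groups. No value of EXPA7, EXPA18 or XTH26 stood apart by this measure.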

How the results depend on the processing

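EXPA7, EXPA18 and XTH26 kept a positive difference under every alternative run. The EXPA7 call ended with replicas as a random block (0.82, adjusted p = 0.295), without a filter (0.82, 0.064), without a filter and with pseudocount 1, an alternative added after seeing the data (0.83, 0.0629), with median scaling (0.83, 0.0511), in experiment 1 alone (0.82, 0.0969) and in experiment 2 alone (0.82, 0.065). Leaving out 1 array gave 0.68 to 0.95 for EXPA7, 0.34 to 0.58 for EXPA18 and 2.56 to 3.52 for XTH26, and these ranges include the same fits with the replicate block, also added after seeing the data. With the experiment as a replicate block EXPA18 passed (0.44, adjusted p = 0.0452), also without ethylene 2-1 (0.52) or air 2-1 (0.54). With replicas as a random block, EXPA18 did not pass (limma adjusted p = 0.708) and XTH26 did (0.0466). The XTH26 call ended in experiment 1 alone (3.42, 0.0681), without ethylene 2-1 (0.0524) and without ethylene 2-2 (0.0585). The difference of XTH26 was 2.50 with pseudocount 64. XTH26 was under the filter, and gave no value, with pseudocount 1 or with 50% of probe sets left out. With no filter and pseudocount 1, XTH26 passed at 3.46 (0.0335). Leaving out 1 array gave −0.31 to 0.32 (EXPA7), −0.43 to −0.05 (EXPA18) and −1.26 to 0.00 (XTH26) for the difference between experiments, with a group of 1 array assumed to vary like the others.

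Permuting within each experiment, a replicate block whose smallest p is 0.0556, gave that p for the excess of XTH26 over EXPA7 (2.28) and over EXPA18 (2.66). Called probe sets, 249 higher and 406 lower, were 689 and 1170 with the replicate block, 119 and 130 with replicas as a random block, 374 higher in experiment 1 alone and 387 and 641 in experiment 2 alone. Leaving out 1 array gave 164 to 204 higher and 214 to 315 lower. The blocked list counts were 2 higher and 7 lower expansins and 4 higher root hair genes. CSLD2 reversed in experiment 2 alone (−0.022), where it did not pass. The causes were not tested. No detection calls came with the values, which limits what the dim air values of XTH26 show.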
